A study of Mus musculus with 4 samples.

Results

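Genes of early blood and erythroid progenitors were followed in bone marrow cells sorted as erythroblasts, from mice with and without Parp2. The genes were Kit, Myb, Cd34, Cd44, Car1, Bmi1, Hmga2, Ly6a and Mybbp1a. They were taken by name from the platform annotation, and each gene was read from the probe set annotated to its symbol alone, the brightest where there were several. Of the 9 genes, 8 had such a probe set, 1 each, among 19938 genes measured this way and 23410 annotated probe sets; Ly6a, which encodes the stem cell surface protein Sca-1, had none and is not analysed here. The cells were bone marrow cells sorted for 2 surface proteins, the erythroid marker Ter119 and the transferrin receptor CD71. One group was labelled Parp-2-/- (2 arrays) and the other wild type (2 arrays), both on a C57BL/6 background; age, sex and whether each array is a separate animal are not given in the sources used here. Each title ends in a number, 1 or 2, that both genotypes share, and the labels do not say what it marks. The titles also open with the numbers 3 and 4 for the knockout and 1 and 2 for wild type; if these mark an order of processing, it and the genotype cannot be told apart.

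Red cells form from stem cells through progenitors that depend first on KIT, the receptor tyrosine kinase for stem cell factor, and later on erythropoietin. KIT and the transcription factor MYB keep progenitors dividing and immature, and both are switched off as erythroblasts begin to fill with haemoglobin. CD34 and Sca-1 mark the earliest cells, CD44 is a hyaluronan receptor that declines as erythroblasts mature, and carbonic anhydrase 1 appears early in the erythroid line. BMI1 is a Polycomb repressor and HMGA2 a chromatin protein of self-renewing cells. MYBBP1A is a nucleolar protein that binds MYB and acts on ribosomal RNA synthesis and p53. The Ter119 and CD71 sort selects cells that are mostly past the KIT-positive stage. Values below are log2 expression per probe set, and a difference of 1 is a factor of 2 on the linear scale.

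The arrays were first compared as a whole. Array medians were 5.23 and 5.49 in the knockout and 5.24 and 5.34 in wild type, for numbers 1 and 2 in that order, and the interquartile range was 1.98 on the knockout array numbered 2 and 2.62 to 2.94 on the remaining arrays. Parp2 itself read 7.11 and 6.70 in the knockout and 8.24 and 7.65 in wild type. Of 12 erythroblast markers 10 were measured, among them the CD71 gene Tfrc, at 10.65 and 11.39 in the knockout and 10.35 and 11.43 in wild type. The mean log2 level of these markers was 10.26 and 10.78 in the knockout and 9.67 and 10.99 in wild type, so the wild type array numbered 1 was the lowest. Their summed linear level was 16947 and 25305 in the knockout and 12178 and 28118 in wild type. Neutrophil markers, 18 genes, were bright as well, at 29080 and 22272 in the knockout and 50392 and 41162 in wild type. One of them, S100a8, had a mean level above that of 99.9% of probe sets. The values are therefore those of mixed cells. With limma over all 23410 probe sets, 0 (0%) passed an adjusted p under 0.05, and 486 (2.08%) had an unadjusted p under 0.05.

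**Figure D1:**
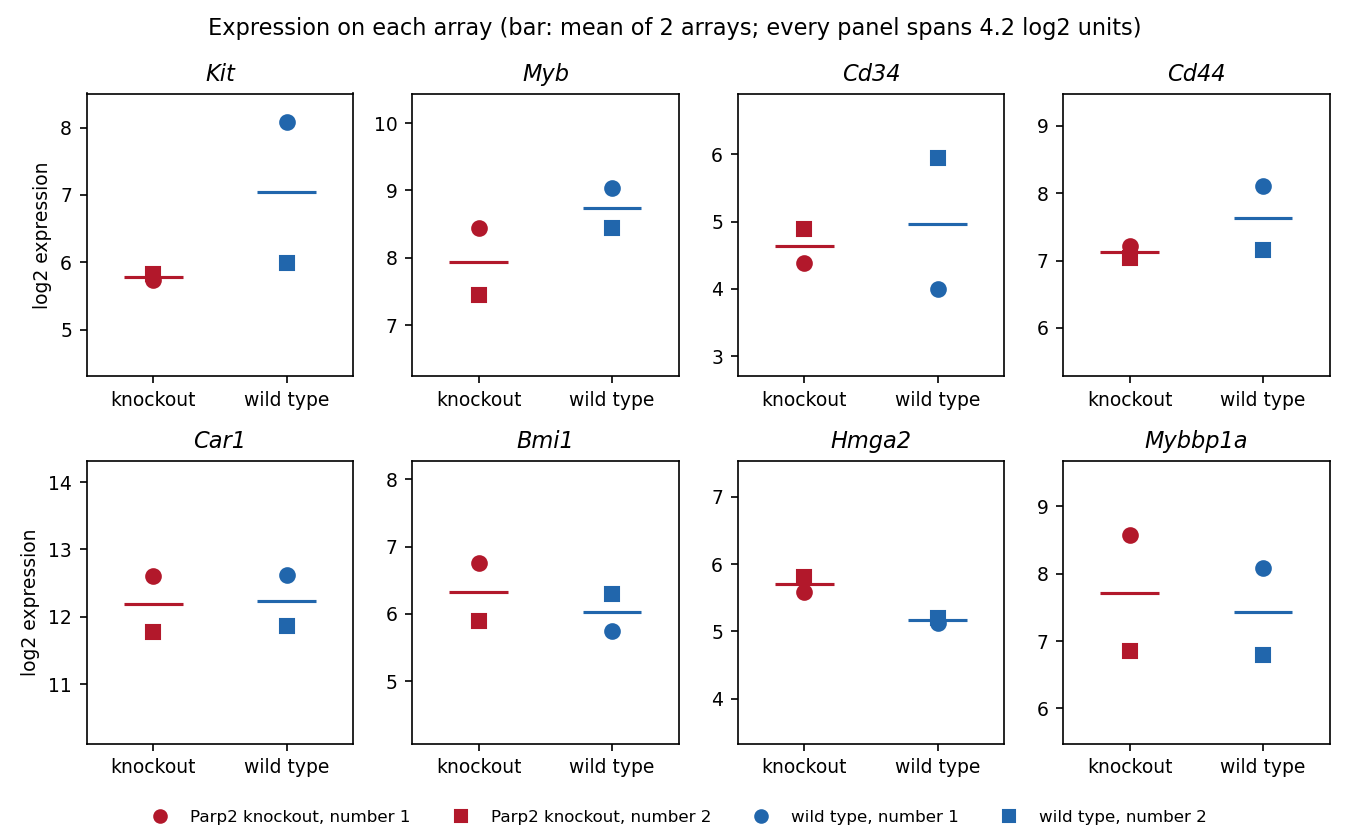
Log2 expression of the 8 measured genes on each of the 4 arrays, knockout left and wild type right; circles are arrays numbered 1, squares arrays numbered 2, and bars the mean of 2 arrays. Kit was high on a single wild type array, Hmga2 was higher on both knockout arrays, and Mybbp1a and Car1 separated by number within each genotype.

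Of the 8 genes, 5 had lower and 3 higher mean values in the knockout, and 0 passed the test over all probe sets, where the share called was 0%. For Kit and Myb the 2 knockout arrays were below either wild type array, a pattern met by 9.42% of all probe sets, and for Hmga2 they were above, a pattern met by 15.6%. The median difference of the 8 genes was -0.19, beside +0.08 over all 19938 genes. Adjusted p-values were 0.9999 for each of the 8 genes by limma. With 2 arrays a group the smallest two-sided p of an exact permutation test is 0.333, so that test was not used.

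Kit showed the widest difference of the group. It read 5.73 and 5.82 in the knockout, against 8.09 and 5.98 in wild type (numbers 1 and 2 in that order, as in all values below). A single array, wild type number 1, was high, while the other wild type array was 0.16 above the nearest knockout array. By the fit, Kit was at -1.26 ± 0.67 in knockout minus wild type (SE, n = 2 per group), a 2.39-fold lower level, with a 95% confidence interval of -2.86 to +0.34. Without wild type replicate 1 it was -0.21, and without wild type replicate 2 it was -2.31. Among all probe sets 1.4% lay at least as far below 0.

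Markers of mast cells, basophils and eosinophils were also read on each array. Mast cells keep KIT throughout life, and the list of mast cell, basophil and eosinophil markers had a summed linear level of 583 and 607 in the knockout, against 1991 and 879 in wild type. The highest sum was on the wild type array numbered 1, where Kit was high too. Sums of neutrophil markers (50392) and of T and NK cell markers (1031) also peaked on that array. Those of B cell (2277) and monocyte and macrophage markers (6296) peaked on wild type number 2, and that of megakaryocyte markers (834) on knockout number 2. Of the 12 listed mast cell, basophil and eosinophil markers 11 were measured and 8 were lower in the knockout. For 3 of them the groups did not overlap, beside 9.42% of all probe sets. The array values have no true 0. The basophil protease gene Mcpt8 read 5.53 and 6.53 in the knockout and 8.63 and 7.91 in wild type. Among genes typical of mast cells, Cpa3 read 5.71 and 5.64 in the knockout and 6.27 and 5.73 in wild type, highest on the same array. The Fc receptor gene Fcer1a was instead lowest there, at 4.46 and 4.40 in the knockout and 3.85 and 5.0 in wild type. In sorted bulk cells, fewer cells of a type and less RNA per cell cannot be told apart, and the part of these cells in the Kit values was not tested. Neutrophil markers were lower in the knockout for 18 of 18 genes, with a median difference of -1.46 and a mean log2 level of 9.44 and 8.72 in the knockout and 10.79 and 10.01 in wild type.

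**Figure D2:**
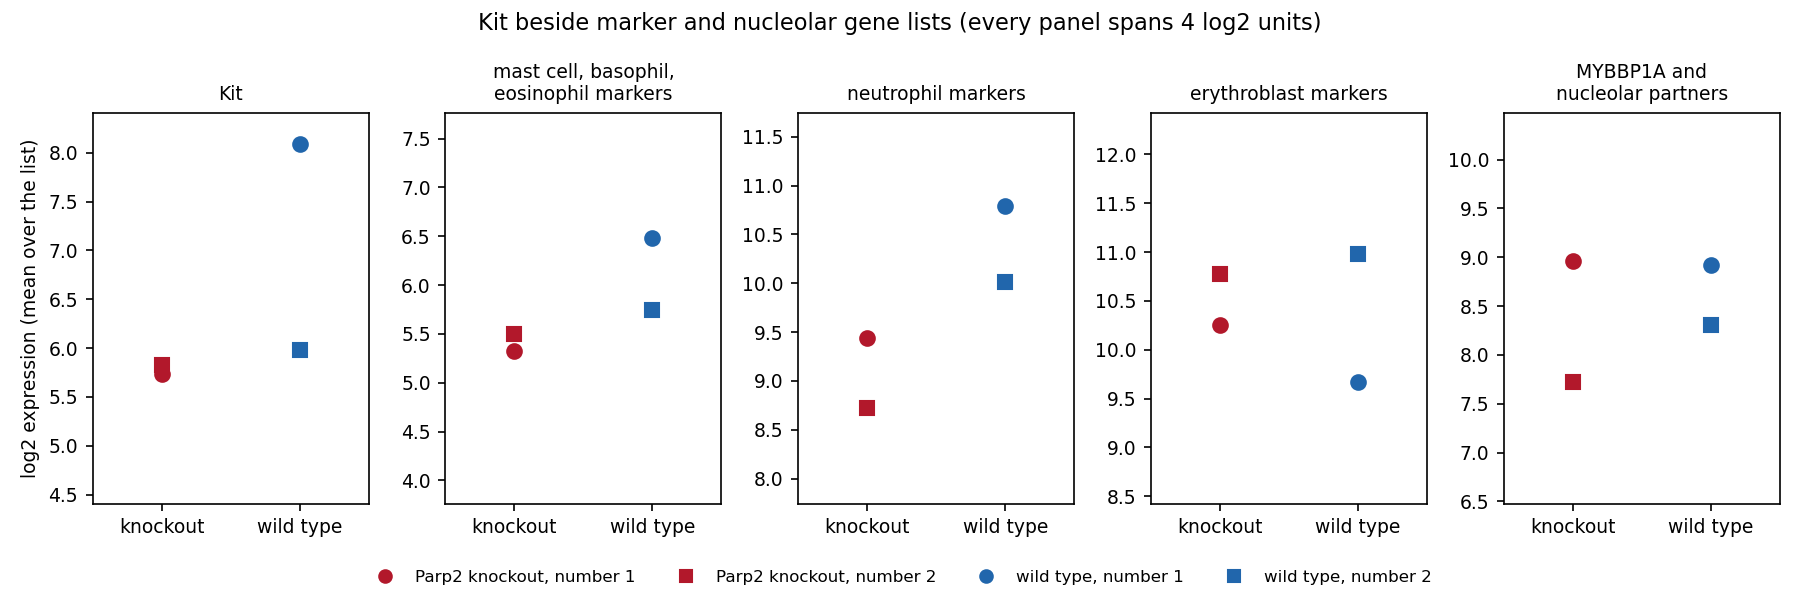
Log2 level of Kit and mean log2 level of 4 gene lists on each array, knockout left and wild type right, with circles for number 1 and squares for number 2. The wild type array numbered 1 was highest for Kit, for mast cell, basophil and eosinophil markers and for neutrophil markers, and lowest for erythroblast markers.

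KIT signals through adaptors and kinases, and is held back by phosphatases and ubiquitin ligases. Of 18 measured signalling partners 11 were lower and 7 higher in the knockout, 0 passed in either direction, and the median difference was -0.08. The lowest unadjusted p-values belonged to Ptpn6, the SHP-1 phosphatase that restrains KIT (8.03 and 7.46 in the knockout, 8.58 and 8.07 in wild type, difference -0.58 ± 0.41), and to the ubiquitin ligase gene Cblb (-0.48 ± 0.36). For both, the knockout arrays were lower without overlap, as for 9.42% of all probe sets. After repeated quantile normalisation the split of this list was 7 lower and 11 higher, with a median of +0.05.

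Myb was lower at both numbers. It read 8.44 and 7.44 in the knockout and 9.03 and 8.45 in wild type. The groups were apart by only 0.0035, between the higher knockout array and the lower wild type array, and they overlapped once arrays were centred on their medians. The fit gave -0.80 ± 0.47 (SE, n = 2 per group), with a 95% confidence interval of -1.91 to +0.32, and it stayed below 0 with any 1 array left out, from -1.29 to -0.30. Among all probe sets 4.85% lay at least as far below 0.

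Genes around MYB had differences of both signs. Of 16 measured family members, cofactors and known targets 10 were lower and 6 higher, 0 passed, and the median was -0.08; after repeated quantile normalisation 7 were lower and 9 higher, with a median of +0.08. Cdk6, a G1 kinase gene that blocks terminal maturation when kept on, read 8.04 and 5.30 in the knockout and 8.39 and 7.85 in wild type. One knockout array, number 2, was low there. Mybl2, the cell cycle relative of Myb, had values of 9.04 and 8.23 in the knockout and 9.14 and 9.17 in wild type. It was lower without overlap, a pattern met by 9.42% of all probe sets.

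Hmga2 ran the other way, with the tightest groups of the 8 genes. It read 5.59 and 5.81 in the knockout and 5.13 and 5.20 in wild type, 0.39 between the nearest arrays. By the fit, Hmga2 was at +0.53 ± 0.35 (SE, n = 2 per group), a 1.45-fold higher level, with a 95% confidence interval of -0.31 to +1.38. It lay between +0.42 and +0.64 with any 1 array left out. Its mean level exceeded that of 51.8% of probe sets. Of 9 measured genes of the LIN28 and let-7 axis that controls Hmga2, 4 were higher and 5 lower, 0 passed, and the median was -0.12. Lin28b, whose product blocks let-7 maturation, read 3.87 and 4.05 in the knockout and 3.85 and 3.9 in wild type. Dis3l2, a nuclease of that pathway (-0.60 ± 0.42), and Dicer1, the enzyme that cuts microRNA precursors (-0.60 ± 0.43), had the lowest p-values. Both were lower without overlap, as were 9.42% of all probe sets.

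The upstream sequences of Kit, Myb and Hmga2 are shown because these were the 3 genes whose genotypes did not overlap. Each run is the 250 bases before the gene start from RefSeq (GRCm38.p6), read 5′ to 3′ along the gene, from chr5:75574737-75574986 on the plus strand, chr10:21160985-21161234 on the minus strand and chr10:120476470-120476719 on the minus strand. Capitals mark any match, on either strand, to AACNG, a core of MYB sites, or to AGATAA, a core of GATA sites.
Kit: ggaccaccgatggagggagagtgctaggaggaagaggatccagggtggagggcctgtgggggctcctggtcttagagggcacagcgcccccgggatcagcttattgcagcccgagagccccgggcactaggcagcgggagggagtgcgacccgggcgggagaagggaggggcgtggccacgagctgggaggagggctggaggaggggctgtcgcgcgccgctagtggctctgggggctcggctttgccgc
Myb: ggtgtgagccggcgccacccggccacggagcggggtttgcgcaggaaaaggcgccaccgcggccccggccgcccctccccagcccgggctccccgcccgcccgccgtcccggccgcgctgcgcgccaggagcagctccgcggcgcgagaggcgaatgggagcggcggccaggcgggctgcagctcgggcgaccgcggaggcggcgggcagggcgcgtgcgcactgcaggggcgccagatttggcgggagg
Hmga2: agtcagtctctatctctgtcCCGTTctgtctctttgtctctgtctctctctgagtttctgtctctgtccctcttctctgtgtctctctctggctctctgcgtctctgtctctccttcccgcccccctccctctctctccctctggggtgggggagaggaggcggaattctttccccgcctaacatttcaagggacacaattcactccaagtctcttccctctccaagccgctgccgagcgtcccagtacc
The Kit and Myb windows held neither motif, and the Hmga2 window held 1 match to AACNG. Of the 9 genes 7 had a sequence in the table, the others being named only. AACNG was found in Cd34, Cd44, Bmi1, Hmga2 and Mybbp1a, beside 74.1% of 27025 promoters of that length, and AGATAA in Cd44 alone, beside 10.3%. These matches describe letters in the window and are no evidence of binding.

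The surface genes Cd34 and Cd44 had overlapping groups. Cd34 read 4.39 and 4.89 in the knockout and 4.00 and 5.95 in wild type, where the wild type arrays enclosed both knockout arrays. The knockout minus wild type difference was +0.39 among the arrays numbered 1 and -1.06 among those numbered 2, and -0.33 ± 0.65 in the fit. Its mean level exceeded that of only 35.0% of probe sets. Cd44 read 7.22 and 7.04 in the knockout, against 8.11 and 7.16 in wild type. As for Kit, the wild type array numbered 1 was the high one, and without it the difference of -0.51 ± 0.44 shrank to -0.03. Neutrophil markers also had their highest mean log2 level (10.79) on wild type number 1, and their part in the Cd44 values was not tested.

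Among 13 measured relatives of CD34 and partners of CD44, 6 were lower and 7 higher, 0 passed, and the median was +0.08, as over all genes. It was 0.00 after centring and +0.24 after repeated quantile normalisation. Selplg, which encodes the selectin ligand PSGL-1 of white cells, read 7.65 and 7.12 in the knockout and 8.77 and 8.21 in wild type, without overlap. The part of white cells in these values was not tested. Podxl, the CD34 relative podocalyxin, read 5.75 and 5.61 in the knockout and 5.26 and 4.84 in wild type, higher without overlap. Among all probe sets 9.42% were lower and 15.6% higher without overlap. In place of Ly6a, 15 other genes of the LY6 family could be measured, 5 lower and 10 higher in the knockout with 0 past the test. Their median was +0.10, beside +0.08 over all genes. After centring 7 were lower and 8 higher, with a median of +0.02. The lowest p-values were those of the neutrophil surface gene Ly6g (-1.74 ± 0.52) and of Lynx1, a modulator of nicotinic receptors (-1.23 ± 0.47).

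Car1 had near-equal means in the genotypes. It read 12.61 and 11.77 in the knockout and 12.62 and 11.86 in wild type, a difference of -0.05 ± 0.47 (SE, n = 2 per group). Within the numbers the difference was -0.02 and -0.09, while the arrays numbered 2 were lower than those numbered 1 by -0.84 in the knockout and -0.77 in wild type. The 95% confidence interval of the genotype difference ran from -1.16 to +1.05. Of 15 other carbonic anhydrase genes 4 were lower and 11 higher, 0 passed, and the median was +0.07, or 0.00 with 6 lower and 9 higher after centring. Car11, of a catalytically inactive member (+0.60 ± 0.42), and the mitochondrial Car5b (-0.76 ± 0.56) had the lowest p-values.

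Bmi1 changed sign between the numbers. It read 6.75 and 5.89 in the knockout and 5.74 and 6.30 in wild type, so that the difference was +1.01 among the arrays numbered 1 and -0.41 among those numbered 2. The fit gave +0.30 ± 0.45, and the groups overlapped. Of 18 measured Polycomb genes 12 were lower and 6 higher, 0 passed, and the median was -0.12, which repeated quantile normalisation brought to -0.02. Cbx2, a chromobox subunit of the same repressive complex, read 6.68 and 6.95 in the knockout and 5.98 and 5.97 in wild type. It was higher without overlap (+0.84 ± 0.36, SE), as were 15.6% of all probe sets. Pcgf3, which can take the place of BMI1 in variant complexes, was at -0.70 ± 0.55 with overlap.

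**Figure D3:**
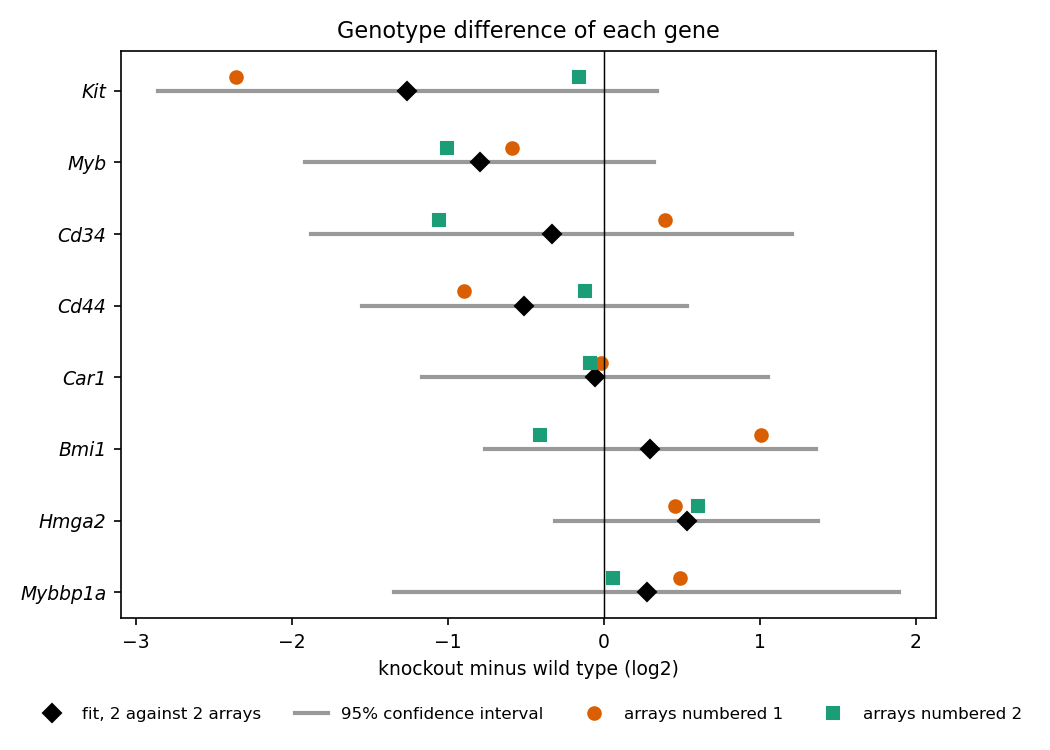
Knockout minus wild type difference (log2) of each gene: diamonds give the fit over 2 against 2 arrays, lines its 95% confidence interval, circles the difference among arrays numbered 1 and squares that among arrays numbered 2. All intervals include 0, and Cd34 and Bmi1 have circles and squares on opposite sides of 0.

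Mybbp1a was lower on the arrays numbered 2 in both genotypes. On the arrays numbered 2 it read 6.85 in the knockout and 6.79 in wild type, against 8.57 and 8.08 on those numbered 1. The number 2 minus number 1 difference was -1.72 in the knockout and -1.29 in wild type. The fit by number gave -1.51 ± 0.33 (SE, n = 2 per number; limma adjusted p = 0.0413), and Mybbp1a was the only one of the 8 genes past that test, where 3.09% of all probe sets were called. The call ended under 8 of the alternatives, among them array centring (adjusted p = 0.0773), repeated quantile normalisation (adjusted p = 0.203) and leaving out any array but wild type replicate 1. The difference by number was -1.69 after centring and -1.06 after repeated quantile normalisation. By genotype the difference was +0.27 ± 0.68.

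Nucleolar and ribosomal RNA genes chosen as partners of MYBBP1A varied by number too. Of 20 measured genes 15 had arrays of number 2 apart from those of number 1, beside 48.3% of all probe sets. The median difference was -1.16, beside +0.09 over all genes. That comparison is unlike in brightness, as mean log2 levels were 7.72 to 8.96 for the list and 5.76 to 5.82 over all genes. The 95th percentile of the arrays also differed, at 9.58 on the knockout array numbered 2 and 9.95 to 10.07 on the remaining arrays. Whether other bright genes moved alike was not tested. Past the test by number were 5 of the 20, beside 3.09% of all probe sets, named here after their values were seen: the RNA helicase gene Ddx21 (-2.31), the fibrillarin gene Fbl (-2.24), Nolc1 (-1.86), the RNA polymerase I subunit gene Polr1a (-1.71) and Nop58 (-1.59), a core protein of box C/D small nucleolar particles. These calls ended after centring, after repeated quantile normalisation, with all rows of the table, and without knockout replicate 2 or wild type replicate 2, where 0 of all probe sets passed by number. Erythroblast markers ran the other way, with a median of +0.73 for number 2 minus number 1. By genotype 17 of the 20 were lower and 3 higher, 0 passed, and the median was -0.23; after repeated quantile normalisation 13 were lower, with a median of -0.07. Polr1b, another polymerase I subunit gene, read 5.38 and 4.60 in the knockout and 6.67 and 5.65 in wild type (-1.16 ± 0.49). It was lower without overlap, as were 9.42% of all probe sets. Polr1c, shared by polymerases I and III, was at -0.60 ± 0.61 with overlap.

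**Figure D4:**
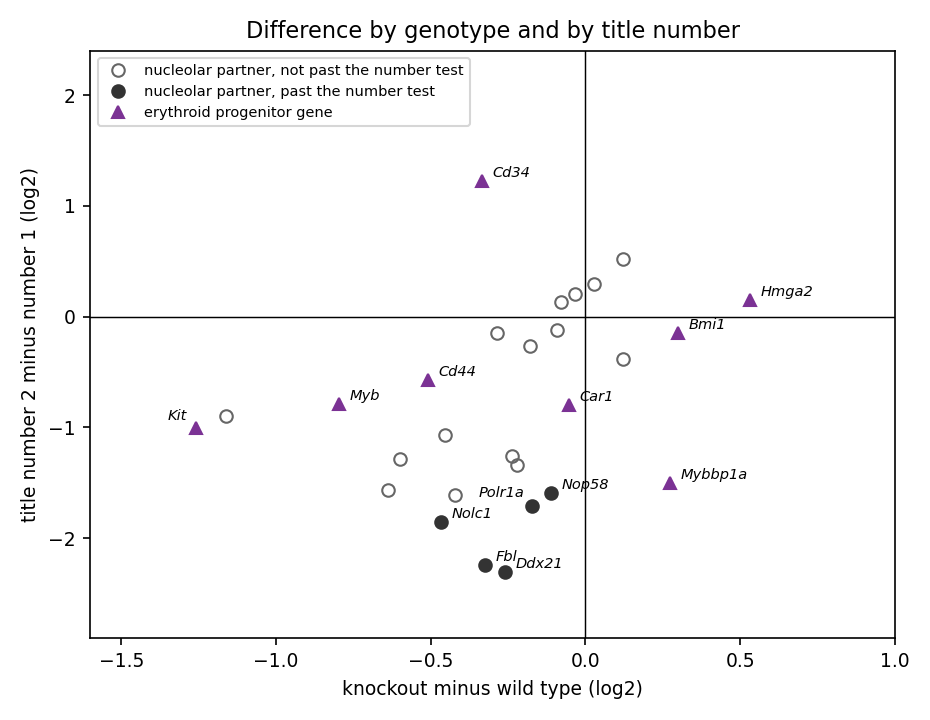
Each point is a gene: the horizontal axis gives its knockout minus wild type difference and the vertical axis its number 2 minus number 1 difference, both log2. Triangles are the 8 erythroid progenitor genes, open circles nucleolar partners of MYBBP1A and filled circles the 5 of them past the test by number; Mybbp1a lies low with them, Cd34 lies high, and Kit and Myb lie to the left.

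Other genes of the set were also compared by number. Besides Mybbp1a, arrays of number 2 were apart from those of number 1 for Cd34 (higher), Cd44 and Car1 (both lower), 4 of 8 genes in all, beside 48.3% of probe sets. For Kit the number 2 minus number 1 difference was +0.09 in the knockout and -2.11 in wild type. Across 23410 probe sets the number differences of the genotypes had a Pearson correlation of 0.468, a description over probe sets that share the same 4 arrays.

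Other genes of stem cells and progenitors were then compared. Of 24 measured, 16 were lower and 8 higher in the knockout, 0 passed in either direction, and 10 were lower and 4 higher without overlap, beside 9.42% and 15.6% of all probe sets. The median was -0.34, and -0.30 or -0.41 under the other scalings. The TNF receptor family gene Cd27 read 4.94 and 4.95 in the knockout and 6.69 and 5.74 in wild type. Spi1, which encodes PU.1, the master factor of myeloid cells, read 7.93 and 6.05 in the knockout and 9.51 and 8.31 in wild type. Both were lower on each knockout array than on either wild type array. Neutrophil, B cell and monocyte markers were lower at the same time, with medians of -1.46 (18 of 18 lower), -1.03 (9 of 11) and -0.69 (12 of 14), and their part in the stem and progenitor values was not tested.

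The genes most like Kit and Myb were sought by the distance between log2 profiles over the 4 arrays, each centred on its mean, among 18703 genes. Nearest to Kit were Ldlrad3 (distance 0.11), Trappc2 (0.16) and the microRNA gene Mir20a (0.20), all high on the wild type array numbered 1 alone. The Mir20a probe set was dim, with a mean level above that of only 10.5% of probe sets. Ldlrad3, for example, read 5.95 and 5.96 in the knockout and 8.20 and 6.05 in wild type. Nearest to Myb were Ube2a, Ptpn12 and Foxj3, at distances of 0.10 each. Ube2a read 7.60 and 6.62 in the knockout and 8.16 and 7.50 in wild type. With 4 points per profile and many genes compared, small distances are a description only.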

How the data were processed

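RNA of bone marrow cells sorted as erythroblasts (100 ng per sample, per the labels) was measured on 4 Affymetrix whole-transcript arrays. The authors deposited log2 expression values for 35511 probe sets, used without further normalisation; RMA, limma and R 3.0.2 are named in the submitters' processing notes, with roles not given in the sources used here. Differences of dim and very bright probe sets can be compressed in array values of this kind, which was not tested. Gene symbols came from the platform annotation (23410 probe sets, 21789 with 1 symbol).

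The genotypes were fitted with limma 3.58.1 under R 4.3.3 (lmFit, eBayes, 2 residual and 4.77 prior degrees of freedom) over all annotated probe sets, with Benjamini-Hochberg adjustment and a threshold of 0.05; the title number was compared in the same way. The SE is the moderated one. No label ties the arrays to different mice; p-values may therefore rest on technical spread alone, and the small number of arrays limits precision. Members, lists and tests were chosen with earlier results of these data known. Lists are described by counts and medians, without a list test. Named are the 8 genes, the 2 genes of lowest p from each pathway list, markers, and the 3 genes nearest to Kit and to Myb; others named in the text (Lin28b and the genes past the test by number) were chosen after their values were seen. Alternative settings were a block for the replicate number, omission of each array, centring, repeated quantile normalisation, a brightness filter, other moderation, array weights, all rows, a threshold of 0.1 and averaging the probe sets of a gene.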

Additional observations from a re-analysis of the deposited data

How the results depend on the processing

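The count of probe sets past the genotype test (0 by limma, with 486 at an unadjusted p under 0.05) was 0 to 62 with 1 array left out (62 without wild type replicate 2, and 5 with the other wild type array omitted). It was 8 with trended and robust moderation. With the title number as a replicate block it was 274 of 23410, 50 of them higher and 224 lower in the knockout. In that fit 0 of the 8 genes passed, Kit coming nearest at a limma adjusted p of 0.115. With only 2 pairs and no label for the number, the block may not be a true pairing. Of the other genes named above, limma with this block called Spi1 (adjusted p = 0.000703), Ly6g (adjusted p = 0.00363) and Cdk6 (adjusted p = 0.0324). The same limma fit called Mir20a (adjusted p = 0.0436) and Mcpt8 (adjusted p = 2.96e-05), and each of these genes was lower in the knockout. The SE of the block fit was 0.41 for every gene, so a gene's own spread between the numbers did not enter these p-values. A call there amounted to a difference of at least 1.40 in either direction. Cdk6 differed by -0.35 among the arrays numbered 1 and by -2.55 among those numbered 2. In all genotype settings 0 of the 8 genes passed, and the lone array of a reduced group is assumed to vary like the others. Kit, Myb, Cd44 and Hmga2 kept their direction in all 12 settings. Only the omissions, centring and repeated quantile normalisation changed the size of a difference. Car1 ranged from -0.47 to +0.37 with 1 array left out (+0.37 without knockout replicate 2, +0.33 without wild type replicate 1) and was +0.072 after repeated quantile normalisation. Mybbp1a ranged from -0.58 (without knockout replicate 1) to +1.13, being -0.37 without wild type replicate 2, Bmi1 from -0.13 (without knockout replicate 1) to +0.73, and Cd34 from -1.31 to +0.64 (without wild type replicate 2). The median of the 8 genes ranged from -0.53 to +0.03 with 1 array left out.

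By title number, 724 of 23410 probe sets (220 higher and 504 lower on number 2) and 1 of the 8 genes passed. With 1 array left out these were 0 to 1178 probe sets (0 without knockout replicate 2 or wild type replicate 2) and 0 to 1 genes, the 1 being Kit without knockout replicate 1 and Mybbp1a without wild type replicate 1. They were 0 and 0 after centring, after repeated quantile normalisation and with all 35511 rows, and 10 and 0 with array weights. Of 11705 brighter probe sets 182 passed, and 0 of 7 genes, Cd34 being too dim. Trended and robust moderation called 2190 of 23410 and 3 genes (Cd34, Car1 and Mybbp1a). Genotype as a block called 2121 and 2 (Cd34 and Mybbp1a). An adjusted p under 0.1 gave 1648 probe sets. The cause was not tested. Dim probe sets such as that of Cd34 limit what these values can show.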
